A study of Mus musculus with 6 samples.

Results

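The Ly49 receptors, encoded by the Klra genes, were taken as the rows of the expression table whose symbol is one of 10 names (Klra1, Klra3, Klra4, Klra5, Klra6, Klra7, Klra8, Klra9, Klra10 and Klra17). Of these 10, 9 were among the 14490 listed genes. No row carried the name Klra17 (Ly49Q), and that gene was not analysed here. The data are mRNA-seq of NK cells sorted from the spleens of C57BL/6 mice, with 3 samples per genotype. WT mice were Mettl3fl/fl, and cKO mice were Ncr1Cre-Mettl3fl/fl (with 1 Cre allele, Ncr1Cre/+, in the methods), in which Cre from the Ncr1 (NKp46) locus deletes the m6A methyltransferase gene Mettl3 in cells that have expressed Ncr1. All 6 samples therefore carried the floxed alleles. WT carried no Cre, so the loss of Mettl3 and the presence of the Ncr1Cre allele cannot be told apart here. The methods give a single age range, that of young adult mice, for all animals of the study, and the labels give no age per sample. The labels also do not say whether samples came from separate animals, so p-values measure only the spread between these samples.

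Ly49 receptors are C-type lectin-like proteins on the surface of mouse NK cells that read MHC class I on other cells. Inhibitory members carry an immunoreceptor tyrosine-based inhibitory motif (ITIM) in the cytoplasmic tail and recruit phosphatases such as SHP-1 when they bind self MHC class I. Activating members lack this motif and pair with the adaptor DAP12 instead; Ly49H is known for binding the m157 protein of mouse cytomegalovirus. The receptors are acquired gradually as NK cells mature, and each cell carries only some of them. A bulk sample adds up all cells, so fewer cells with a receptor and less RNA per cell cannot be told apart in any value given here.

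The difference between both classes can be read from the start of the coding sequences, which is why this stretch is shown. The lines give coding bases 10 to 39 of 5 members, 5′ to 3′, and the capitals mark codon 8. The sequences were cut from GENCODE transcripts of GRCm38.
Klra8 (Ly49H): caggaggtcactTTCccaactatgagattc
Klra4 (Ly49D): caggaagacactTTCtcagctgtgagattc
Klra9 (Ly49I): ccggaggtcactTACtcaactgtgagactt
Klra10 (Ly49J): ctggaggtcactTACtcaactgtgaatctt
Klra7 (Ly49G): caggaggtcactTACtcaactgtgagattt

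All 5 stretches lie in coding exons on the minus strand, at chr6:130128122-130128151 for Klra8, chr6:130065264-130065293 for Klra4, chr6:130191263-130191292 for Klra9, chr6:130281884-130281913 for Klra10 and chr6:130231579-130231608 for Klra7. Codon 8 reads phenylalanine in the 2 activating members, Klra4 and Klra8. It reads tyrosine in the 7 listed inhibitory members, where it is the tyrosine of an ITIM. Members are close copies of each other: Klra9 and Klra10 shared 96.9% of aligned coding bases, whereas Klra4 and Klra10, the least similar listed pair, shared 76.6%. Every 150-base stretch of the longest annotated transcript was unique among annotated transcripts for 8 of 9 listed members. Of the stretches of Klra8, 94.0% were unique and the others also occurred in the pseudogene Klra14-ps. At 75 bases the unique share was 80.3% for Klra8, 85.6% for Klra10 and 87.1% for Klra9. The authors' treatment of reads that match several genes was not given in the sources used here, and no exon of a member overlapped an exon of another annotated gene.

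Reads on the listed genes ranged from 55965515 to 71464042 per sample. Mettl3, the targeted gene, stood at 1303, 1258 and 1192 in WT samples 1, 2 and 3, as counts divided by each sample's size factor (normalized counts). In cKO samples 1, 2 and 3 it stood at 297, 299 and 405. All cKO samples lay below all WT samples, and Mettl3 fell by 1.92 on the log2 scale (adjusted p = 2.32e-14). NK markers were present in every sample. Ncr1, which carries the Cre, fell by 0.40 (adjusted p = 3.56e-11), and Klrb1c, which encodes NK1.1, fell by 0.27 (adjusted p = 8.07e-08).

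Most of the family was lower in cKO NK cells, with both activating receptors and the inhibitory Ly49I furthest down by point estimate. The activating Klra4, at a log2 fold change of −0.42, was close to the inhibitory Klra6 (−0.40) and Klra5 (−0.35). Its value lay within the confidence intervals of Klra6 (−0.54 to −0.26) and Klra5 (−0.53 to −0.17). The activating class was therefore not set apart from these inhibitory members. Of the 9 listed members, 7 fell, 0 rose and 2 (Klra7 and Klra10) did not pass the test. Over all 14490 genes, 18.8% were called lower and 17.8% higher. The median log2 fold change was −0.35 over the 9 members and 0.0014 over all genes. In 7 of 9 members every cKO sample lay below every WT sample, compared with 23.0% of all genes. Calls are from limma with Benjamini-Hochberg adjustment over all genes, at an adjusted p under 0.05. The exact permutation test, whose smallest possible two-sided p with 3 against 3 samples is 0.1, gave 0.1 for each of these 7 members and 0.2 for Klra7 and Klra10.

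**Figure D1:**
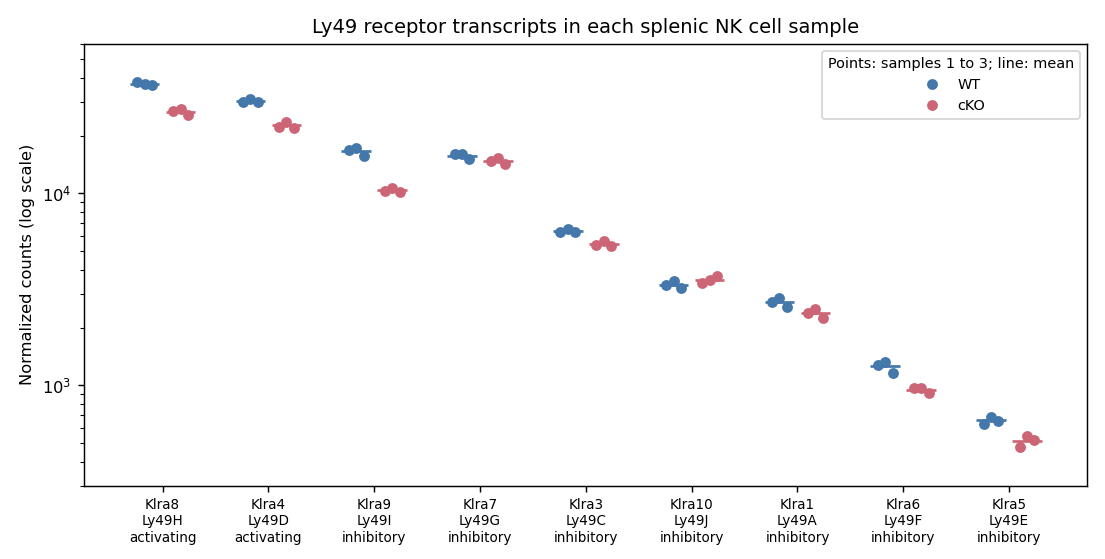
Normalized counts (log scale) of the 9 listed Ly49 receptors in the 3 WT and 3 cKO samples, ordered by WT mean, with a line at each group mean. The groups are apart for 7 receptors and overlap for Klra7 (Ly49G) and Klra10 (Ly49J); counts are not divided by transcript length, so heights of different genes should not be compared.

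The activating receptors come first. Klra8 encodes Ly49H, and its normalized counts were 37920, 37269 and 36857 in WT. They were 26748, 27570 and 25468 in cKO, with samples always given in the order of their replicate numbers. The 3 WT samples lay close together and far above the 3 cKO samples. The log2 fold change was −0.49 (SE 0.0316, 95% confidence interval −0.56 to −0.43, adjusted p = 2.24e-12), so that the level fell by 28.8%.

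Klra4 encodes Ly49D, which pairs with DAP12 as Ly49H does and is known for binding H-2Dd. It had 29889, 30889 and 29783 normalized counts in WT and 22246, 23584 and 21960 in cKO. The highest cKO sample, replicate 2, stayed well below the lowest WT sample. The log2 fold change was −0.42 (SE 0.0320, 95% confidence interval −0.48 to −0.35, adjusted p = 6.46e-11), and the level fell by 25.2%. Both activating receptors were called under each of the 12 alternative settings.

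Both activating receptors moved by similar amounts. The log2 ratio of Klra8 to Klra4 within a sample, which does not depend on how samples are scaled, was 0.34, 0.27 and 0.31 in WT and 0.27, 0.23 and 0.21 in cKO. The groups were narrowly apart, with a difference of −0.07. The exact permutation test gave p = 0.1 (two-sided, n = 3 per genotype), the smallest it can give with 6 samples.

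Among the inhibitory receptors, Klra9 stood furthest down. Klra9 encodes Ly49I, which is known for binding H-2Kb, an MHC class I molecule of C57BL/6 mice. It had 16901, 17310 and 15709 normalized counts in WT and 10270, 10647 and 10159 in cKO. No sample of one genotype came near the other. The log2 fold change was −0.68 (SE 0.0358, 95% confidence interval −0.76 to −0.61, adjusted p = 3.42e-14), so that the level fell by 37.7% and the interval lay below those of both activating receptors.

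Klra6 (Ly49F) and Klra5 (Ly49E) were the members with the lowest WT levels. Klra6 had 1283, 1325 and 1154 normalized counts in WT and 968, 970 and 907 in cKO, a log2 fold change of −0.40 (SE 0.0672, adjusted p = 2.91e-05). Klra5, known from fetal NK cells, had 631, 685 and 653 in WT and 479, 543 and 521 in cKO, a log2 fold change of −0.35 (SE 0.0861, adjusted p = 0.00195). The groups were apart in both genes, and at these levels counting error alone was 2.82% of the value for Klra6 and 3.90% for Klra5.

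Klra3 (Ly49C) and Klra1 (Ly49A) moved less. Klra3, whose product binds H-2Kb as Ly49I does, had 6262, 6531 and 6255 normalized counts in WT and 5402, 5645 and 5287 in cKO. Klra1, whose product binds H-2Dd, had 2726, 2852 and 2563 in WT and 2373, 2504 and 2240 in cKO. In both genes all cKO samples lay below all WT samples, for Klra1 by a narrow margin between cKO replicate 2 and WT replicate 3. The log2 fold changes were −0.22 for Klra3 (SE 0.0378, adjusted p = 3.61e-05) and −0.19 for Klra1 (SE 0.0511, adjusted p = 0.00372).

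Klra7 encodes Ly49G, an inhibitory receptor for H-2Dd. It had 15997, 15984 and 15060 normalized counts in WT and 14711, 15352 and 14270 in cKO. The highest cKO sample lay above the lowest WT sample. The log2 fold change was −0.09 (SE 0.0344, 95% confidence interval −0.16 to −0.01, adjusted p = 0.0527). Over 12 alternatives the adjusted p ranged from 0.0169 to 0.401. The gene passed the threshold in 5 of them, among which were those without WT replicate 3 (log2 fold change −0.11, adjusted p = 0.0181) and without cKO replicate 2 (−0.11, adjusted p = 0.0169).

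Klra10 encodes Ly49J and was the only listed member with a positive estimate. It had 3337, 3488 and 3207 normalized counts in WT and 3420, 3547 and 3702 in cKO. The ranges overlapped, with WT replicate 2 above cKO replicate 1. The log2 fold change was 0.09 (SE 0.0446, 95% confidence interval −0.003 to 0.18, adjusted p = 0.125). Scaled to equal totals over the listed genes, it was called higher (0.14, adjusted p = 0.0161), the only call of 12 alternatives.

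**Figure D2:**
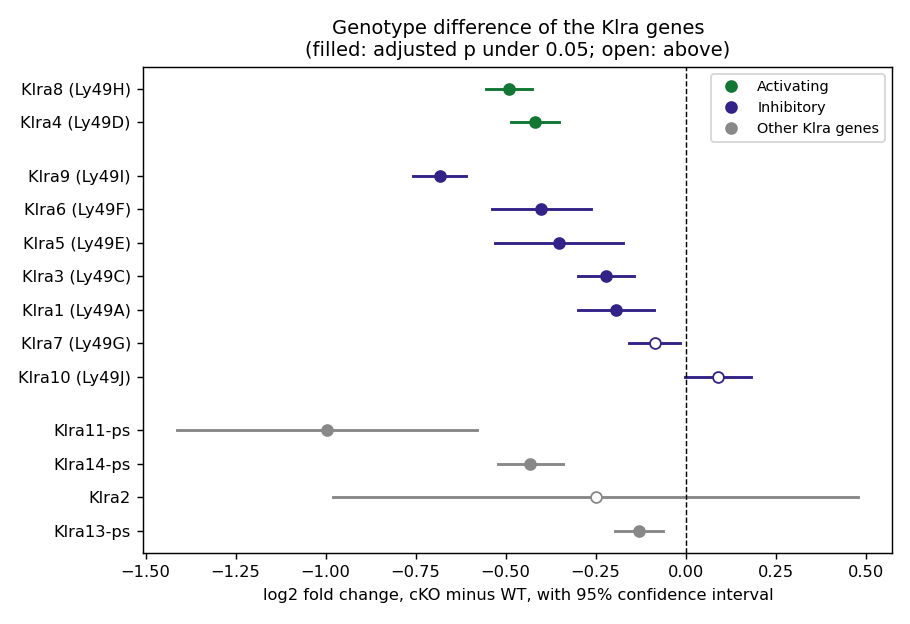
Log2 fold change, cKO minus WT, with 95% confidence intervals for the 2 activating and 7 inhibitory Ly49 receptors and 4 other Klra genes; filled points have an adjusted p under 0.05. Klra9 (Ly49I) at −0.68 lies lowest among the receptors and Klra10 (Ly49J) at 0.09 highest.

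Klra9 and Klra10 therefore lay at opposite ends of the family although they were the pair with the most similar coding sequences. The log2 ratio of Klra9 to Klra10 was 2.34, 2.31 and 2.29 in the WT samples and 1.59, 1.59 and 1.46 in the cKO samples. This pair was named after its values were seen, and the groups were far apart relative to the spread within each. The difference was −0.77.

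The family as a whole made up a smaller part of the transcriptome in cKO. Summed over the 9 members, normalized counts were 114944, 116334 and 111240 in WT and 86617, 90362 and 84516 in cKO. The mean fell from 114173 ± 2633 to 87165 ± 2961 (SD, n = 3), a ratio of 0.763. As a share of all listed counts, the family took 0.172% ± 0.0033 in WT and 0.136% ± 0.0032 in cKO (SD, n = 3). The sum is weighted towards Klra8 and Klra4.

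Members were then ranked by WT level on the scale of normalized counts per kb of the longest annotated transcript, since counts also grow with transcript length. Klra8 ranked first at 31705 ± 455 per kb (SD, n = 3), followed by Klra4 at 24247 ± 490. The activating receptors were thus the most abundant members, with 33.2% and 25.4% of the summed level per kb. Klra7 at 14203 ± 487 and Klra9 at 13010 ± 650 came next. Their order reversed when counts were not divided by length (13.7% of the family for Klra7 and 14.6% for Klra9) and when all exons of the gene were used as the length (13.2% and 13.9%), so it is not settled which of the pair is higher.

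The remaining members were far lower. Klra3 stood at 5129 ± 127 per kb, Klra10 at 4063 ± 171 and Klra1 at 1627 ± 86.9. Klra6 at 1124 ± 80.2 and Klra5 at 513 ± 21.5 closed the list. On this scale the WT sample ranges of neighbours in the order did not overlap. The annotated transcript of Klra10 is 823 bases long, of which 798 are coding, so its level per kb rests on a gene model with almost no untranslated sequence.

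The make-up of the family shifted with these unequal changes. The share of Klra7 in the summed level per kb was 15.0%, 14.9% and 14.6% in the WT samples and 18.2%, 18.2% and 18.1% in the cKO samples. That of Klra10 was 4.21%, 4.35% and 4.18% in WT and 5.68%, 5.65% and 6.29% in cKO. Both shares were higher in every cKO sample, while neither gene was called higher in normalized counts.

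The share of Klra9 went the other way, from 13.7%, 13.9% and 13.2% in WT to 11.0%, 10.9% and 11.1% in cKO. Klra8 went from 33.4%, 32.5% and 33.6% in WT to 31.1%, 30.7% and 30.3% in cKO. Klra4 kept nearly the same share, 25.4% ± 0.385 in WT and 24.7% ± 0.205 in cKO (SD, n = 3). Shares have a common denominator, so a rise of one follows in part from the fall of others, and they were not tested.

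**Figure D3:**
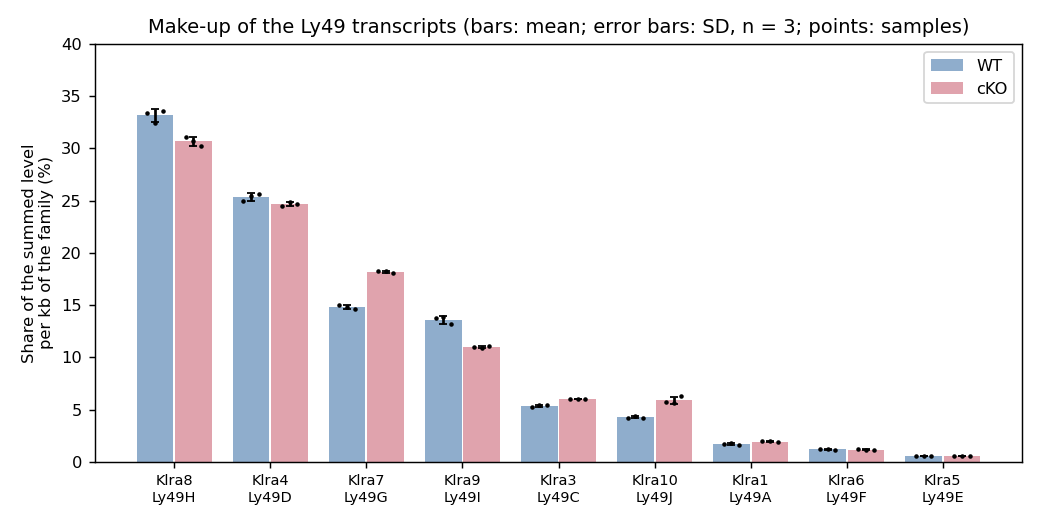
Share of each Ly49 receptor in the summed level of the 9 members (normalized counts per kb of the longest transcript), as mean bars with SD over 3 samples and points for samples. Klra7 rises from 14.9% in WT to 18.2% in cKO and Klra10 from 4.25% to 5.88%, while Klra9 goes from 13.6% to 11.0%.

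All listed members lie on the minus strand of chromosome 6, between Klra5 and Klra1, and 3 Klra pseudogenes lie between them. Klra14-ps had 14587, 14864 and 12840 normalized counts in WT and 9959, 11025 and 10323 in cKO, a log2 fold change of −0.43 (adjusted p = 1.29e-08). Klra11-ps, with 153, 177 and 139 in WT and 73.2, 65.4 and 96.9 in cKO, had a log2 fold change of −0.996 (SE 0.202, adjusted p = 0.00029). Klra13-ps had 48017, 51253 and 49401 in WT and 45407, 46822 and 43706 in cKO, a fall of only 0.13 on the log2 scale (adjusted p = 0.00217). In all 3 pseudogenes the cKO samples lay below the WT samples. Klra2, a gene known from myeloid cells that lies outside the cluster, had 28.8, 33.3 and 32.2 in WT and 23.4, 29.1 and 26.5 in cKO (log2 fold change −0.25, SE 0.355, adjusted p = 0.629).

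The values were also read along the cluster in the direction of transcription. The 5 genes from Klra1 to Klra7 (Klra1, Klra3, Klra13-ps, Klra10 and Klra7), which start within 153.6 kb of each other, had log2 fold changes between −0.22 and 0.09. The 7 genes from Klra9 to Klra5 (Klra9, Klra14-ps, Klra8, Klra11-ps, Klra4, Klra6 and Klra5), which start 193.8 to 469.2 kb from Klra1, had log2 fold changes between −0.996 and −0.35. Inhibitory and activating genes both lay in the second stretch. This division was drawn after the values were seen and has no test.

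**Figure D4:**
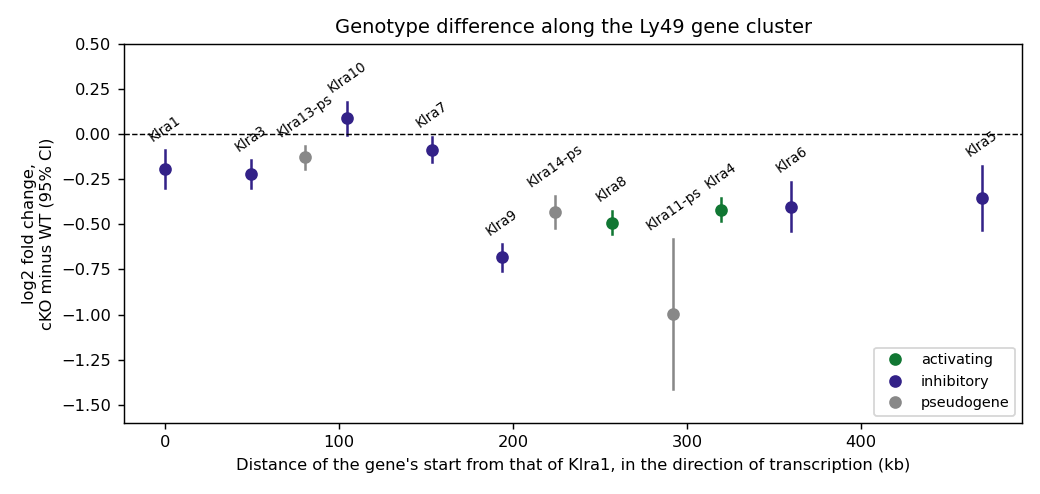
Log2 fold change, cKO minus WT, with 95% confidence intervals, against the distance of each gene's start from that of Klra1 in kb; green points are activating receptors, blue inhibitory receptors and grey pseudogenes. The 5 genes nearest to Klra1 lie between −0.22 and 0.09 and the 7 genes from 193.8 kb onwards between −0.996 and −0.35.

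Genes that carry the receptors' signals, and their ligands, were examined as a list of 23 signalling and ligand genes, all of them listed. Of these, 13 fell, 2 rose and 8 did not pass the test, against 18.8% and 17.8% of all genes, and the median log2 fold change was −0.12. Tyrobp encodes DAP12, the adaptor through which Ly49H and Ly49D signal. It had 56615, 56953 and 54155 normalized counts in WT and 46364, 45747 and 42443 in cKO, with no overlap. The log2 fold change was −0.32 (SE 0.0333, adjusted p = 2.08e-08).

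Hcst, which encodes the adaptor DAP10, had a log2 fold change of −0.15 (adjusted p = 0.00683), with overlapping groups. This call was lost without WT replicate 2 (−0.11, adjusted p = 0.0583), without cKO replicate 3 (−0.12, adjusted p = 0.0527) and under equal totals (−0.10, adjusted p = 0.0622). Plcg2, a phospholipase downstream of activating receptors, fell by 0.25 (adjusted p = 1.07e-06). On the inhibitory side, Ptpn6 (SHP-1) had a log2 fold change of −0.08 that did not pass (adjusted p = 0.0723), and Inpp5d (SHIP1) rose by 0.14 (adjusted p = 0.00132). Ptpn11 (SHP-2), named here after its values were seen, fell by 0.12 (adjusted p = 0.0122), a call lost without WT replicate 1 (−0.09, adjusted p = 0.0769), without cKO replicate 1 (−0.10, adjusted p = 0.0779) and under equal totals (−0.07, adjusted p = 0.145). Sh3bp2, an adaptor of NK cell signalling, rose by 0.24 (adjusted p = 0.000772).

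The MHC class I genes of the NK cells themselves were lower. B2m, the light chain common to class I molecules, had 183536, 183607 and 178944 normalized counts in WT and 149352, 154325 and 142522 in cKO, and fell by 0.29 (adjusted p = 4.17e-08). H2-K1, which encodes the H-2K heavy chain, fell by 0.14 (adjusted p = 0.00268). H2-D1, which encodes the H-2D heavy chain, fell by 0.11 (adjusted p = 0.0057), a call lost under equal totals (−0.06, adjusted p = 0.069). The groups were apart in all 3 genes.

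The transcription factor list held 18 genes tied to Ly49 expression or NK cell maturation, and 6 rose, 1 fell and 11 did not pass, against 17.8% higher and 18.8% lower over all genes, with a median of 0.02. Tcf7 encodes TCF-1, known as a regulator of Ly49A acquisition, and had 17554, 16443 and 16139 normalized counts in WT and 16021, 16836 and 16440 in cKO. These ranges overlapped, and the log2 fold change was −0.02 (SE 0.0342, adjusted p = 0.633). Runx3 gave 0.05 (adjusted p = 0.243), called higher only under equal totals (0.10, adjusted p = 0.011). Eomes, the T-box factor that marks conventional NK cells, gave −0.01 (adjusted p = 0.828).

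The factors that rose were led by Tbx21 (T-bet) at 0.23 (adjusted p = 5.47e-07), Prdm1 (Blimp-1) at 0.27 (adjusted p = 9.01e-07) and Foxo1 at 0.24 (adjusted p = 1.27e-05). Runx1 was the only one called lower, at −0.10 (adjusted p = 0.0411). That call was lost without WT replicate 1 (−0.06, adjusted p = 0.259), WT replicate 3 (adjusted p = 0.0709), cKO replicate 2 (adjusted p = 0.0717) or cKO replicate 3 (adjusted p = 0.161), and under equal totals (adjusted p = 0.309).

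**Figure D5:**
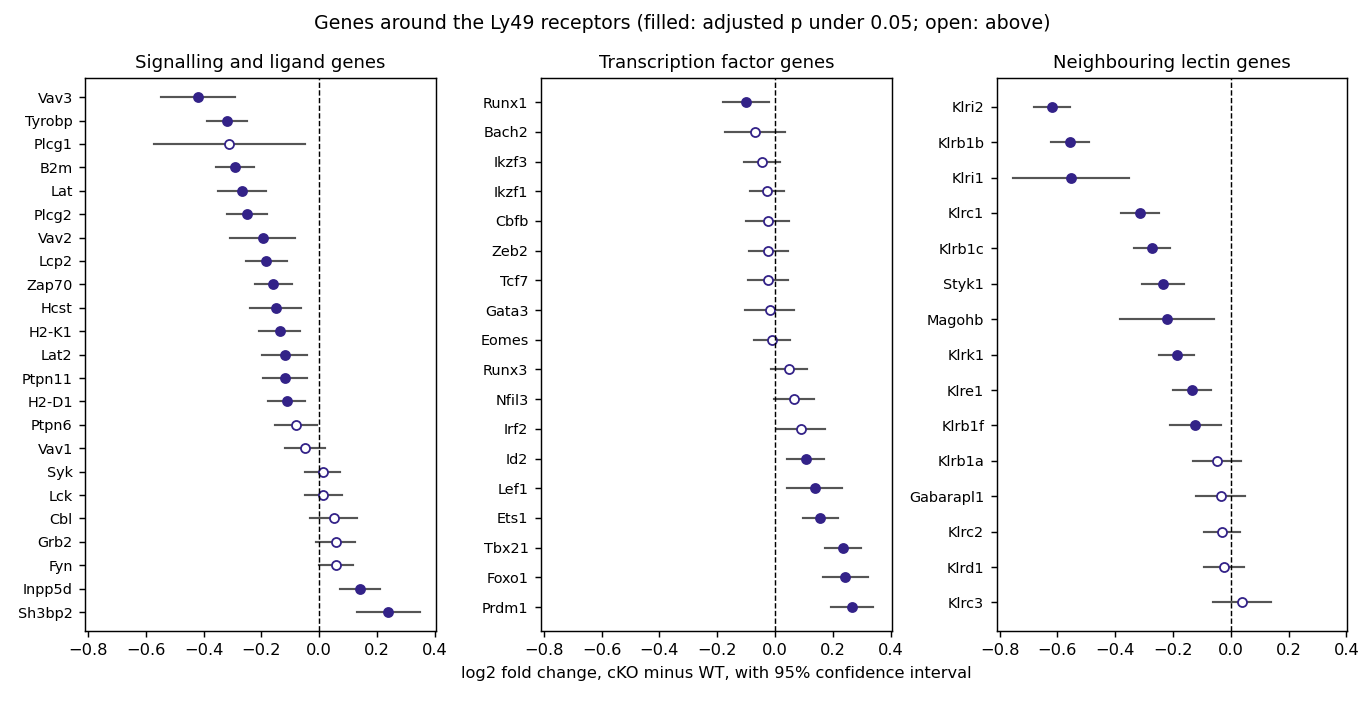
Log2 fold change, cKO minus WT, with 95% confidence intervals for 23 signalling and ligand genes, 18 transcription factor genes and 15 lectin and neighbouring genes. Filled points have an adjusted p under 0.05. Tyrobp at −0.32 and B2m at −0.29 are among the 13 signalling and ligand genes that fell. In the lectin panel, which also holds the non-lectin genes Gabarapl1, Magohb and Styk1, 10 genes fell and 0 rose.

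Other lectin-like receptor genes and neighbours in the NK gene complex were examined as a list of 16, of which 15 were listed. Of these, 10 fell, 0 rose and 5 did not pass, against 18.8% lower and 17.8% higher over all genes, with a median of −0.19. The neighbours Gabarapl1, Magohb and Styk1 are not lectin genes, and Magohb (−0.22, adjusted p = 0.0311) and Styk1 (−0.24, adjusted p = 8.33e-06) were among those that fell. The calls of Magohb and of Klrb1f (−0.12, adjusted p = 0.0242) held in only 7 of 12 alternatives each. Klri2, which pairs with Klre1, had 60425, 61758 and 59319 normalized counts in WT and 39302, 40548 and 38450 in cKO, a log2 fold change of −0.62 (adjusted p = 8.19e-15). Klrb1b, of the NKR-P1 family, fell by 0.56 (adjusted p = 1.75e-13), and Klrc1, which encodes the inhibitory receptor NKG2A, fell by 0.31 (adjusted p = 1.39e-08). Members of the Ly49 family were therefore not alone among lectin receptors in being lower, and no test compared the families.

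Maturation markers moved in both directions, beside 17.8% of all genes called higher and 18.8% called lower. Of 7 late markers, 3 rose and 1 fell (median 0.0031), with S1pr5 at 0.49 (adjusted p = 4.11e-11), Cx3cr1 at 0.54 (adjusted p = 1.82e-07) and Prdm1 as above, against Klrg1 at −0.55 (adjusted p = 1.39e-10). Of 8 early markers, 3 rose and 1 fell (median 0.05), with Ltb at 0.64 (adjusted p = 2.90e-11), Cxcr3 at 0.81 (adjusted p = 4.84e-11) and Il7r at 0.52 (adjusted p = 1.37e-06), against Kit at −0.53 (adjusted p = 4.89e-08). Neither list was shifted one way as a whole, and the part of maturation stage in the Ly49 values was not tested.

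Markers of other cells the sorted samples could hold were low beside those of NK cells. Their sums lay apart between genotypes for B cells and ILC1, higher in cKO, and for T cells, lower in cKO. The ILC1 difference lay mostly in Il7r and the T cell difference in Cd3g, and some markers of both lists went the other way. The shares of all genes called, 18.8% lower and 17.8% higher, stand beside each count. The 7 NK markers summed to between 676213 and 706614 normalized counts in WT and 651161 and 681255 in cKO, of which 4 fell (Ncr1, Klrb1c and Prf1 with the lowest p, Prf1 at −0.18, adjusted p = 6.28e-05) and 1, Il2rb, rose by 0.14 (adjusted p = 0.000797). Of 6 B cell markers 5 rose and 0 fell, among them Cd79a at 0.72 (adjusted p = 0.000293) and Cd22 at 0.27 (adjusted p = 0.00921, lost without cKO replicate 3 at 0.0628). Their sums ran from 1248 to 1266 in WT and from 1702 to 1734 in cKO. None of these B cell markers was at 0 in any sample, and their part in the Ly49 values was not tested.

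T cell markers (6 of 7 listed) summed to between 1794 and 1987 in WT and 1395 and 1619 in cKO. Of these, 1 was called lower, Cd3g at −0.75 (adjusted p = 4.50e-08), and 0 higher. Cd3g had 794, 797 and 815 normalized counts in WT and 482, 499 and 453 in cKO. Cd8a went the other way with the groups apart (0.66, adjusted p = 0.0514), and was called higher in 2 of 12 alternatives. Cd3e gave 0.15 (adjusted p = 0.548), and Cd3d, Cd4 and Cd5 had negative estimates that did not pass. Plasmacytoid dendritic cells are where Klra17 is known, and 5 of their 7 markers were listed, at sums of 3070 to 3319 in WT and 2849 to 3138 in cKO. Of these, Cox6a2 fell by 0.49 (adjusted p = 0.00179) and Spib rose by 0.65 (adjusted p = 0.0454), a call lost without any 1 of the samples except WT replicate 2.

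The myeloid sums (5 of 7 listed) of 6156 to 6666 in WT and 5976 to 6685 in cKO overlapped, with Lyz2 at −0.40 (adjusted p = 8.87e-06), Cd68 at 0.20 (adjusted p = 0.0194) and Cd14 at 0.46 (adjusted p = 0.0393). The calls of Cd68 and Cd14 were both lost without WT replicate 2 (adjusted p = 0.0744 and 0.171). Cd68 also lost its call without cKO replicate 2 (adjusted p = 0.0934), and Cd14 without cKO replicate 1 or 3 (adjusted p = 0.118 and 0.101).

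The 6 ILC1 markers summed to 1655 to 1809 in WT and 2039 to 2059 in cKO, with Il7r as the only call. Il7r, also on the early marker list, had 706, 690 and 734 normalized counts in WT and 1035, 1011 and 1003 in cKO. Inpp4b went the other way with the groups apart (−0.31, adjusted p = 0.0829). Itga1 (0.02) and Tmem176b (−0.04) were nearly flat, and Tmem176a (0.33) and Cd200r1 (0.22) were higher without passing. Erythroid markers (5 of 6 listed) summed to 811 to 869.9 in WT and 684 to 832 in cKO, with 0 called in either direction. No listed marker of these types was at 0 in any sample, and the part of these cell types in the Ly49 values was not tested.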

How the data were processed

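Genotypes and replicate numbers came from the sample labels. According to the submitters' processing notes and the methods, the authors aligned paired 150-base reads to GRCm38 with HISAT2 and counted them per gene with featureCounts 1.5.0-p3. Values deposited per sample are a signal rather than raw reads: DESeq2 size factors were used by the authors to scale gene counts (the notes and the methods name different versions of it and of HISAT2), and the scaled values are called normalized counts here. The table also holds the authors' mean over samples, log2 fold change, standard error, statistic and p-values, which were not used.

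Genotypes were compared on log2(value + 1) by limma 3.58.1 (R 4.3.3), with a trend in the variance and two-sided tests, and p-values were adjusted by Benjamini-Hochberg over the 14490 genes. A filter (3 samples at 1 or more) removed no gene. Fold changes are on the log2(value + 1) scale. Count models were not run. Single ratios were compared by exact permutation over 20 assignments. The steps were tested on simulated data.

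Lengths, positions and sequences came from GENCODE vM21 (GRCm38), which matched 97.3% of listed names. Of the names, 19 were spreadsheet dates and 1 occurred again. Values were whole multiples of 1 step per sample, which gave the reads on listed genes. The depth outside the listed genes was not used here.

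The members and lists were chosen with earlier results of these data known. Named genes are the members, Mettl3, other Klra rows, and up to 3 genes per list and direction with the lowest p. Also named are 10 fixed genes of the signalling, ligand and factor lists, and the genes outside the Klra family most like Klra4 and Klra8. The lists were 23 signalling and ligand genes, 18 transcription factors, late and early maturation markers, and other lectin genes with neighbours in the NK gene complex. Markers of NK, B, T, plasmacytoid dendritic, myeloid, ILC1 and erythroid cells formed further lists. Other settings tried were 0.1 as the pseudocount, leaving out the filter, requiring 1 CPM, equal totals, limma-voom, a replicate block and each replicate left out. How reads matching several genes were treated was not given in the sources used here. A few single genes that the naming rule would give are not reported here.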

Additional observations from a re-analysis of the deposited data

How the results depend on the processing

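The 9 members gave 108 log2 fold changes under alternatives. None reversed, 102 stayed on their side of the threshold, and 6 newly passed it: 5 for Klra7, and 1 for Klra10 under equal totals, where 1 member was called higher in place of 0. Not every setting could change an estimate. The filter removed no gene, so leaving it out repeated the main fit. Requiring 1 CPM and the replicate block left each member's log2 fold change as it was, so its sign could not reverse there. The pseudocount of 0.1 and limma-voom hardly moved any member (Klra5 from −0.3515 to −0.3521 and −0.3518), so these settings barely test the sign. The number called lower was 7 or 8 under every alternative run, and leaving out a replicate gave 7 to 8. Over all genes, 2731 were called lower and 2576 higher, which equal totals turned into 2016 and 3487, with the median of all genes at 0.05. Equal totals also gave 4 signalling and ligand genes called higher, and 0 transcription factors called lower; that last count ranged from 0 to 1 with a replicate left out, and the cause was not tested.

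With the replicate number as a block, 8 members were called lower and 0 higher, Klra7 being the added one (adjusted p = 0.0193). Same-numbered samples 1, 2 and 3 correlated in their deviations at −0.024, 0.116 and 0.045 over 11753 genes. Differently numbered samples correlated at −0.103 to 0.062, and not every sample correlated best with its own number. Deviations were taken from the mean of only 3 samples per genotype, so this check cannot settle whether the numbers pair the samples.

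Planned count models and TMM factors were not run here. The 3 samples per genotype and the members' shared sequence limit precision.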

Other observations

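Genes outside the Klra family whose pattern over the 6 samples was most like that of the activating receptors were then searched for. The search covered 11741 genes with a mean of at least 1 CPM and used the root mean square difference of centred log2 values. All Klra genes were left out of it beforehand, so whether a family member lay closer is not shown. For Klra4 these included Fzr1, a coactivator of the anaphase-promoting complex (0.015), and Oat, ornithine aminotransferase (0.0196). Fzr1 had 4114, 4182 and 4007 normalized counts in WT and 2983, 3141 and 2981 in cKO, a log2 fold change of −0.43. For Klra8 they were Tmcc3 (0.0182), Vim, which encodes vimentin (0.0218), and Rnf19b, a ubiquitin ligase of NK cells (0.0219). Vim had 79579, 76146 and 74895 normalized counts in WT and 54993, 56855 and 54042 in cKO, a log2 fold change of −0.48. None of these genes is a lectin receptor, although lectin receptor genes outside the Klra family could have been found.

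The motif GGACT, a common sequence context of m6A, was searched on the sense strand of the longest annotated transcript. It occurred in 8 of the 9 listed members, 2 times in Klra7 and in Klra8 and not at all in Klra10, and in 88.5% of all listed genes with a transcript. The annotated transcript of Klra10 has 823 bases, of which 798 are coding, so almost no untranslated sequence of this gene was searched. The motif was searched by its letters alone, and no measurement of m6A was used.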
